A study of Mus musculus with 12 samples.

Results

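TRIM proteins are a family of ubiquitin ligases, and 60 of the 19505 genes measured on these arrays were taken as its members. A gene was a member when its annotated symbol began with Trim followed by a number. Trim30a was left out by this rule, and each of the 60 genes was read by 1 probe set. RNA came from RAW 264.7 cells, a macrophage-like mouse line, and each sample was hybridised to 1 Affymetrix array. The 12 arrays formed 4 groups of 3, and all groups were kept for 6 hours with lipopolysaccharide (LPS, a bacterial membrane component that activates macrophages) at 500 ng/mL. The first group received LPS alone, the second LPS with TsSP at 50 µg/mL, the third LPS with inulin (a plant fructan) at 500 µg/mL, and the fourth LPS with both agents. TsSP is the abbreviation in the sample labels. No array without LPS was used, so each change is one within LPS-stimulated cells. RAW 264.7 is a single transformed line. Whether arrays of 1 group stand for independent cultures is not stated in the labels, so p-values measure the spread between these arrays, which may be technical.

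A typical TRIM protein carries a RING finger, which recruits a ubiquitin-loaded enzyme and which some members lack, followed by B-box zinc fingers and a coiled coil through which the protein forms dimers. The region after the coiled coil differs between subfamilies and usually selects the target; a PRY-SPRY domain is the most common form. Many family members are induced by interferon, and in macrophages several act on the receptors, adaptors and transcription factors through which nucleic acids and bacterial products are sensed.

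The arrays were alike in brightness. Array medians ran from 5.16 to 5.30 in log2 units, with the lowest on replicate 1 of LPS alone, and between 8771 and 9059 genes lay above the brightest of the 23 background probes of their array. Of 10 macrophage markers, 9 were measured and all 9 lay above background. Of the markers of lymphocytes, 0 of 7 measured did so. Likewise, 0 of 5 markers of neutrophils or mast cells and 0 of 5 of fibroblasts or epithelium lay above background. The summed signal of the macrophage markers, as log2, was 19.08 to 19.15 with LPS alone, 19.27 to 19.32 with TsSP, 19.15 to 19.16 with inulin and 19.31 to 19.34 with both agents. It was therefore higher on each array with TsSP than on each array without it, and its part in the results was not tested.

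Of the 60 TRIM genes, 30 lay above background in at least 1 group, meaning above the brightest background probe on each of that group's 3 arrays. Of all genes, 46.3% did so. In 25 TRIM genes this held in all 4 groups, and in 5 (Trim3, Trim45, Trim46, Trim62 and Trim65) in some groups only. The other 30 were below background on all 12 arrays. They were Trim2, Trim6, Trim7, Trim9, Trim10, Trim15, Trim29, Trim30e-ps1, Trim31, Trim36, Trim38, Trim40, Trim42, Trim43a, Trim43b, Trim43c, Trim47, Trim50, Trim52, Trim54, Trim55, Trim58, Trim63, Trim66, Trim67, Trim69, Trim71, Trim72, Trim75 and Trim80. These included all 4 members known from muscle (Trim54, Trim55, Trim63 and Trim72) and all 8 measured members known from germ cells, placenta, early embryo or red cell precursors. Near the boundary, the highest array of Trim52 was 0.13 log2 units below background, and the lowest array of Trim30b was 0.07 above it. Trim5, Trim17, Trim23, Trim30c, Trim34a, Trim34b, Trim60 and Trim61 were not analysed here.

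**Figure D1:**
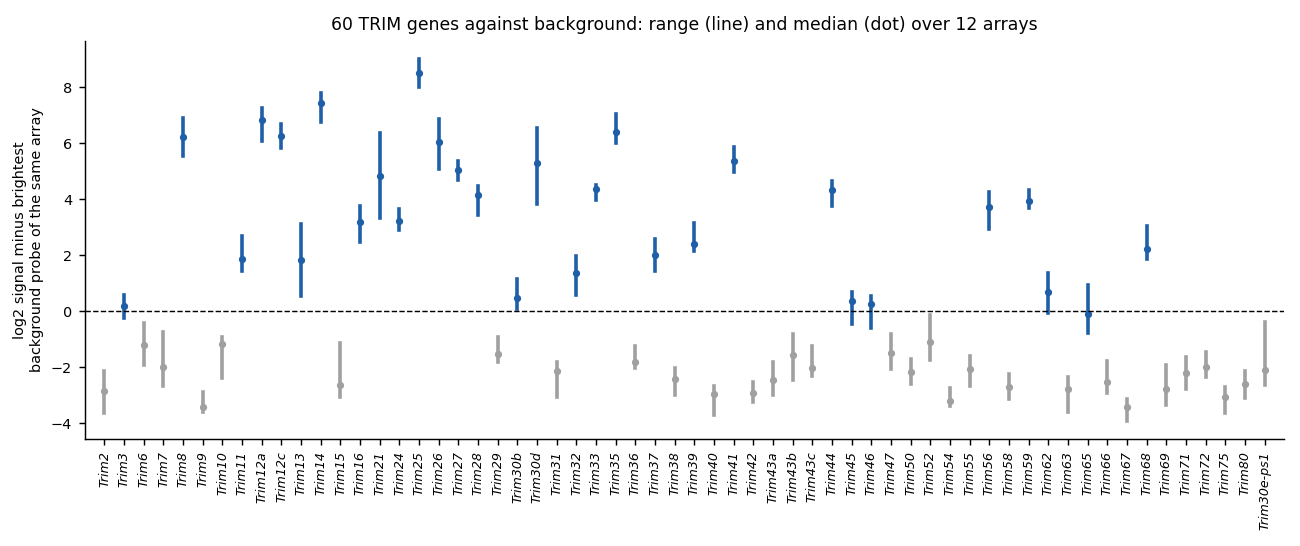
Signal of each of the 60 TRIM genes minus the brightest background probe of the same array (log2 units, vertical axis), with a line for the range over 12 arrays and a dot for the median. Blue marks the 30 genes above background in at least 1 group and grey the 30 below it on all 12 arrays; heights are not comparable between genes because each probe set binds differently.

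With TsSP added to LPS, more TRIM genes were called lower than higher. In the limma fit over all genes, 15 of 60 members passed an adjusted p of 0.05, 12 lower and 3 higher. The higher count depended on the setting. It was 8, beside 11 lower, when only genes above background were tested, and 6, beside 12 lower, with a mean-variance trend. Trim62 and Trim65, both among the 8, were above background on all arrays of a group only with TsSP. Shares of all genes in these settings are not given here, so these counts are no result about the family. In the main fit, the 15 calls are 25.0% of the members, beside 18.1% of all genes tested. By direction, 20.0% of the members were lower, beside 7.08% of all genes, and 5.00% were higher, beside 11.0%. Among the 30 above background in at least 1 group, 14 passed, beside 34.9% of all genes that met the same condition; 11 fell, beside 13.3%, and 3 rose, beside 21.6%. Trim65, 1 of these 3, met that condition only in the groups with TsSP, where it was high, so these shares are a description and support nothing. The twelfth lower call, Trim75, was below background. The median log2 difference was -0.10 over the 60 members and 0.02 over all genes. In RNA from a whole culture, fewer expressing cells and less RNA per cell cannot be told apart.

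Trim21 showed the largest change in the family. It is a cytosolic antibody receptor and ligase that marks antibody-coated virus particles for degradation. Its log2 signals were 12.50, 12.16 and 12.22 with LPS alone, 9.54, 9.69 and 9.75 with TsSP, 12.02, 12.54 and 12.54 with inulin, and 9.89, 10.05 and 9.81 with both. The 6 arrays with TsSP were all low and the 6 without it all high, with no overlap. Signal was 6.21-fold lower with TsSP than with LPS alone (log2 difference -2.64, SE 0.16, adjusted p = 9.26e-07). With both agents it was 5.19-fold lower than with LPS alone.

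Trim13, a ligase anchored in the endoplasmic reticulum membrane and linked to the disposal of misfolded proteins, followed the same order. Its log2 signals were 8.56, 8.62 and 8.74 with LPS alone, 6.75, 7.06 and 7.52 with TsSP, 9.32, 9.14 and 8.84 with inulin, and 7.03, 7.25 and 7.39 with both. The arrays with TsSP again lay below all arrays without it. The fall with TsSP was 2.90-fold (log2 difference -1.53, SE 0.20, adjusted p = 0.000201).

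Trim26, a ligase reported to act on IRF3, gave log2 signals of 12.86, 12.75 and 13.00 with LPS alone and 11.85, 11.75 and 11.72 with TsSP. With inulin they were 12.82, 12.95 and 13.12, and with both agents 11.37, 11.52 and 11.40. The groups with and without TsSP did not overlap, and the 3 arrays with both agents were the lowest. Trim26 fell 2.14-fold with TsSP (log2 difference -1.10, SE 0.12, adjusted p = 6.51e-05) and 2.71-fold with both agents, each against LPS alone.

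Of the other TRIM genes listed here for innate signalling, 3 more fell with TsSP. Trim25, which attaches ubiquitin to the RNA sensor RIG-I, lay between 15.05 and 15.30 on the LPS arrays and between 14.31 and 14.44 with TsSP, a 1.75-fold fall (adjusted p = 0.000447). Trim56, which promotes signalling by the cytosolic DNA pathway, fell 1.69-fold (adjusted p = 0.0049). Trim14, an adaptor at the mitochondrial signalling protein MAVS that lacks a RING finger, fell 1.66-fold (adjusted p = 0.000737). For each of these 3 genes the arrays with TsSP and with LPS alone did not overlap.

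Trim8 and Trim65 rose. Trim8 promotes NF-kB signalling after TNF and IL-1, and its log2 signals were 11.77, 11.90 and 11.94 with LPS alone, 12.93, 13.05 and 13.00 with TsSP, 11.82, 12.00 and 11.78 with inulin, and 12.90, 13.01 and 13.05 with both. All 6 arrays with TsSP lay above the 6 without it, and signal rose 2.18-fold with TsSP (log2 difference 1.12, SE 0.11, adjusted p = 3.01e-05).

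Trim65 attaches ubiquitin to the RNA sensor MDA5. It gave log2 signals of 5.49, 5.65 and 5.50 with LPS alone, 6.71, 7.10 and 6.85 with TsSP, 5.72, 5.85 and 5.94 with inulin, and 6.37, 7.16 and 7.05 with both. It was above background on all arrays with TsSP and on no array without it. Its level without TsSP is therefore only bounded: the rise with TsSP was at least 1.57-fold against the background level (adjusted p of the fit = 0.000472).

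The innate signalling list as a whole held 12 measured genes, of which 6 were lower, 2 were higher and 4 did not pass with TsSP. It leaves out Trim35, Trim41, Trim44 and Trim62, which are described below with roles in innate signalling. Of those left out, only Trim35 passed with TsSP, as lower. These are 50.0% lower and 16.7% higher, beside 7.08% and 11.0% of all genes. Of the 10 above background, 6 were lower and 2 (20.0%) higher, beside 13.3% and 21.6% of all genes above background, so the higher share was near that of all genes. The 4 that did not pass were Trim27 and Trim32, which were above background, and Trim31 and Trim38, which were below it on all arrays. The list's median log2 difference was -0.59, beside 0.02 for all genes.

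The next group holds the TRIM5 and TRIM30 relatives of mouse chromosome 7, with Trim21 and Trim68 added to them. Trim12a and Trim12c are mouse relatives of primate TRIM5, a factor that binds retroviral capsids, and lie near Trim6, Trim30b and Trim30d; Trim21 and Trim68 are on the same chromosome. Of 8 measured members of this group (these 7 and Trim30e-ps1), 4 were lower with TsSP and 0 were higher, that is 50.0% lower beside 7.08% of all genes. Of the 6 above background in at least 1 group 66.7% were lower, beside 13.3% of all genes above background. Trim21, 1 of the 4, and Trim68, which did not pass, lie apart from the others on the chromosome. Trim21 is counted in the innate signalling list too.

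Trim30d, a member of the Trim30 gene cluster of the mouse, gave log2 signals of 12.65, 12.84 and 12.57 with LPS alone and 10.45, 10.78 and 10.34 with TsSP. With inulin they were 12.17, 12.42 and 12.78, and with both agents 10.64, 10.67 and 10.09. The arrays with TsSP all lay below the arrays without it. The fall with TsSP was 4.50-fold (log2 difference -2.17, SE 0.20, adjusted p = 1.88e-05).

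Trim12a fell 1.69-fold (13.34 to 13.44 on the LPS arrays, 12.41 to 12.81 with TsSP, adjusted p = 0.00268). Trim12c fell 1.49-fold (12.64 to 12.94 against 12.02 to 12.29, adjusted p = 0.0104). In both, the groups with and without TsSP did not overlap. The neighbouring Trim30b did not pass: its difference was -0.54 (SE 0.22, adjusted p = 0.128), with 6.62, 7.43 and 6.97 on the LPS arrays and 6.70, 6.44 and 6.25 with TsSP, which overlapped. It passed in 2 of 19 alternative settings: with quantile normalization, and without replicate 1 of LPS alone (difference -0.73, adjusted p = 0.046). Trim68, a ligase with a PRY-SPRY domain, had a difference of -0.31 (adjusted p = 0.349). The Trim12 and Trim30 copies are close relatives, and signal shared between their probe sets was not tested.

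**Figure D2:**
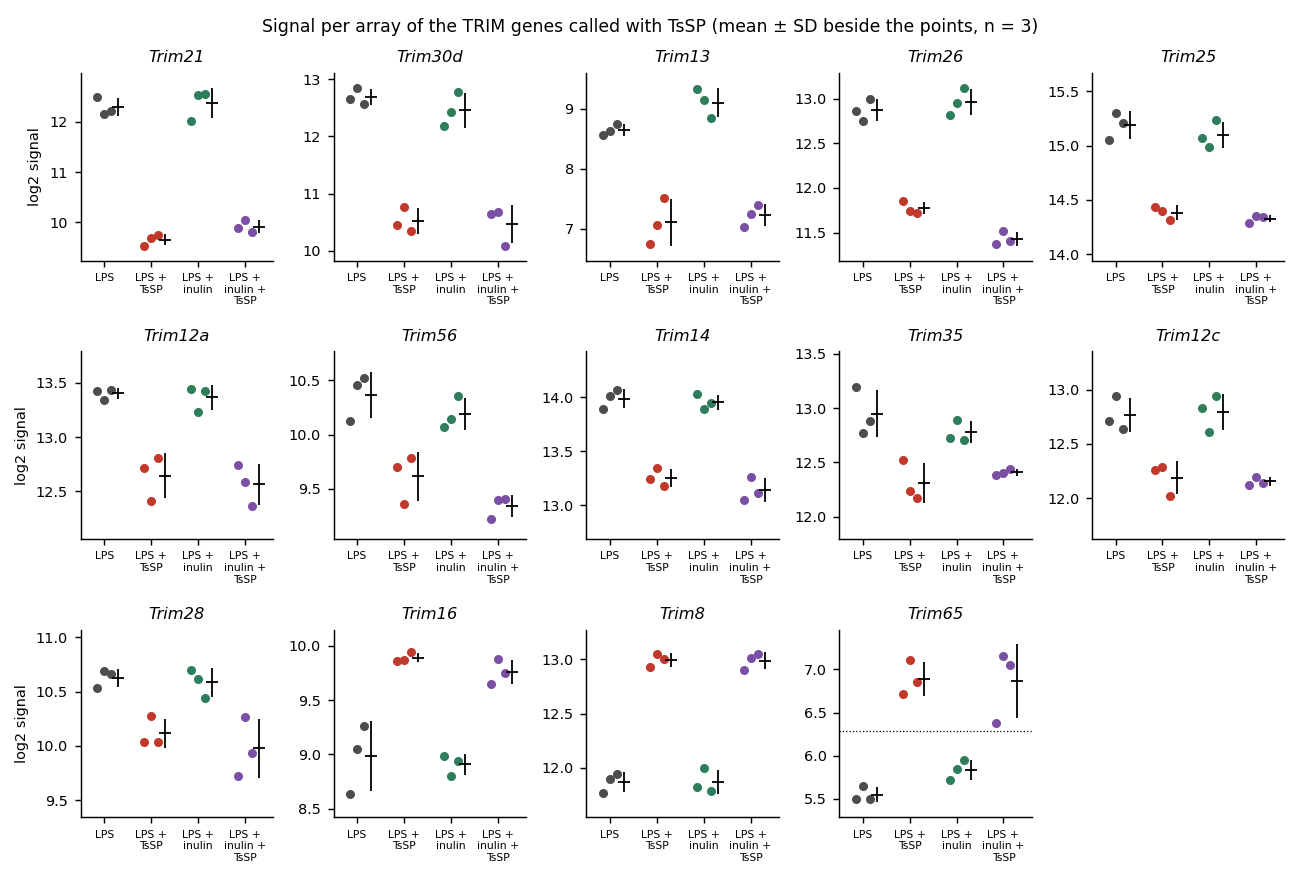
Log2 signal on each array for the 14 TRIM genes that were above background and called in the comparison of TsSP with LPS alone, by treatment, with the mean and SD of 3 arrays beside the points. Vertical axes differ between panels and do not start at 0, and the dotted line for Trim65 is the brightest background probe of any array (6.28); 11 genes sit lower and 3 sit higher with TsSP, with or without inulin.

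The promoters of the fallen genes were read for the interferon-stimulated response element, the site bound by IRF factors and by the complex that interferon activates. It was searched, on both strands, as GAAA, any 2 bases and GAAA again, in RefSeq windows of 300 bases that hold 250 before the transcription start (build GRCm38.p6). A window was read for 45 of the 60 members; the fallen Trim14 and Trim35 and the 3 risen genes, Trim8, Trim16 and Trim65, were not among them. The element was in 5 of 9 members that fell with TsSP and lay above background, in 0 of 13 that were above background and did not pass, and in 1 of 23 below background (Trim2). Among all 27025 genes with a window, 3.99% held it. The sequences of the 5 fallen genes that held it are shown on each gene's own strand, 5′ to 3′, because these 5 include the 2 TRIM genes with the largest falls; capitals mark the match, and the genome position of each stretch is given after its strand.
Trim21 (minus strand, chr7:102565447-102565476): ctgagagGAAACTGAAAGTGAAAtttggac
Trim30d (minus strand, chr7:104507854-104507930): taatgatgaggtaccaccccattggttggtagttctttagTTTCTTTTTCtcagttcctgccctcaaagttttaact
Trim26 (plus strand, chr17:36836946-36837041): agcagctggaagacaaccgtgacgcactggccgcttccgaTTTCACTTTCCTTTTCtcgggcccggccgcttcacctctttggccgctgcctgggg
Trim12a (minus strand, chr7:104315466-104315495): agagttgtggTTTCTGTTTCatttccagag
Trim12c (minus strand, chr7:104353359-104353418): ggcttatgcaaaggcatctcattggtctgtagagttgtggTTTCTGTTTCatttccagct

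The Trim21 and Trim26 stretches each hold 2 overlapping matches. Counting the first transcribed base as 1, the Trim21 match covers bases 14 to 29 and the Trim12a match bases 11 to 20, both within the transcribed span. The other matches lie upstream, at -160 to -145 in Trim26, -41 to -32 in Trim30d and -29 to -20 in Trim12c. Trim12a and Trim12c share the same 10 matched letters, and the bases shown for Trim12a recur in Trim12c except at the end. The counts above therefore hold 2 close relatives with near-identical sequence as separate genes. The gamma-activated site, searched as TTCNNNGAA on both strands, was in 0 of the 9 fallen members with a window and in 9.55% of all genes. The hypoxia response core ACGTG was in 2 of the 9 (Trim25 and Trim28) and in 21.8% of all genes. The lysosomal CLEAR element, which is that core between GTC and AC, was in 0 of the 9 and in 0.37% of all genes. These are letter matches in a short window, not measured binding.

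Outside these groups, Trim16 rose with TsSP. It works with galectins in the removal of damaged lysosomes and in the response to oxidative stress. Its log2 signals were 8.63, 9.05 and 9.26 with LPS alone, 9.86, 9.87 and 9.94 with TsSP, 8.99, 8.80 and 8.94 with inulin, and 9.65, 9.88 and 9.75 with both. The arrays with TsSP lay above all others, and the rise was 1.88-fold (log2 difference 0.91, SE 0.15, adjusted p = 0.00149).

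Trim62, a ligase of the fungal-sensing adaptor CARD9, had the next largest difference but did not pass. Its log2 signals were 6.33, 6.60 and 6.21 with LPS alone, 6.97, 7.45 and 7.28 with TsSP, 6.86, 6.17 and 7.18 with inulin, and 7.04, 7.57 and 6.66 with both. The TsSP arrays lay above the LPS arrays, the inulin arrays were spread over both ranges, and 1 LPS array and 1 inulin array were below background. The difference from LPS alone was 0.85 (SE 0.28, adjusted p = 0.0552), and it passed in 7 of 19 alternative settings.

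Trim35, a ligase reported to act on IRF7, fell 1.56-fold with TsSP (12.77 to 13.19 against 12.17 to 12.52, adjusted p = 0.00734). Trim28, the corepressor that KRAB zinc finger proteins recruit to silence chromatin, fell 1.43-fold (10.53 to 10.69 against 10.03 to 10.27, adjusted p = 0.0357). The Trim28 call was the weaker: it was lost in 5 of 19 settings, each of which left out 1 array, with adjusted p up to 0.112. The other measured members of its TIF1 group, Trim24, Trim33 and Trim66, did not pass, with differences of -0.01 in Trim24 and 0.12 in Trim33. None of the 4 measured NHL-repeat members and none of the 7 measured COS-box members, which bind microtubules, passed with TsSP. At an unadjusted p of 0.05 by limma both counts were also 0. These lists hold only genes with a numbered Trim symbol. They leave out the microtubule-bound Mid1, which was called lower with TsSP and is described below. Only 2 of the NHL-repeat members and 1 of the COS-box members were above background, so these zero counts, beside 18.1% of all genes called, say little about either group.

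**Figure D3:**
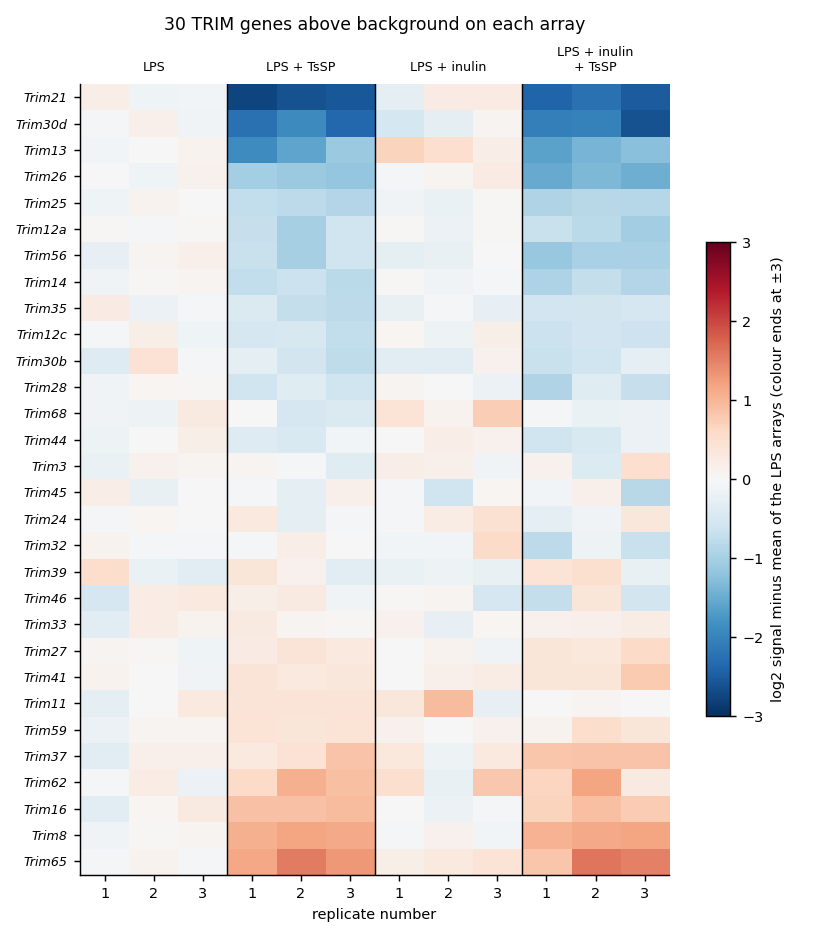
Log2 signal of the 30 TRIM genes above background in at least 1 group, minus the mean of the 3 LPS arrays, on each of 12 arrays (columns, by replicate number within treatment), ordered by the TsSP difference. Blue is lower and red higher than LPS alone; the columns of LPS + TsSP and of LPS + inulin + TsSP share dark blue rows from Trim21 to Trim26 and red rows from Trim16 to Trim65.

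The comparison of both agents with inulin, called TsSP added to inulin here, took its differences from the other 6 arrays. The labels do not give the order in which the agents were added. It gave a second reading of the TsSP difference. The SE and p-values are not separate, because both comparisons used 1 spread estimated from all 12 arrays. Here 20 of 60 members passed, 14 lower and 6 higher, beside 16.7% of all genes. By direction, 23.3% of the members were lower, beside 7.99% of all genes, and 10.0% were higher, beside 8.66%. Of the 30 above background in at least 1 group, 17 passed, beside 32.4% of all genes under that condition, 12 lower, beside 15.4%, and 5 higher, beside 17.0%. Of these 30 members, 27 had the same sign in both sets of arrays, beside 7645 of all 9022 genes above background. In both sets 13 members were called, beside 2422 of the 9022 genes. All 13 members and all 2422 genes had the same direction, so agreement in direction was not particular to TRIM genes. As a description across genes, the differences in the 2 sets correlated at r = 0.954 (Spearman rho 0.928) over these 30 members, and at r = 0.935 over all 9022 genes above background. Over the 30 members below background r was -0.026. Genes are not independent replicates.

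The largest falls were also the largest here. Trim21 fell 5.46-fold (adjusted p = 1.47e-06), Trim30d 3.97-fold (adjusted p = 3.56e-05), Trim13 3.67-fold (adjusted p = 4.47e-05) and Trim26 2.89-fold (adjusted p = 5.06e-06). Trim56, Trim14, Trim12a, Trim25, Trim12c and Trim28 fell between 1.53-fold and 1.80-fold. Trim8 rose 2.17-fold (adjusted p = 3.11e-05), Trim16 1.81-fold (adjusted p = 0.00238) and Trim65 at least 1.57-fold (adjusted p = 0.00299).

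Some members were called when TsSP was added to inulin and not for TsSP against LPS alone. Trim32, an NHL-repeat ligase mutated in a limb-girdle muscular dystrophy, fell 1.59-fold when TsSP was added to inulin (7.56, 7.55 and 8.21 against 6.85, 7.50 and 6.98, adjusted p = 0.0469), and this call was lost in 12 of 19 settings. Its difference between TsSP and LPS alone was 0.06 (adjusted p = 0.902). Trim44, a RING-less member reported to stabilise MAVS, fell 1.43-fold (adjusted p = 0.036), a call lost in 6 settings. Trim37, a ligase that limits centriole number, rose 1.61-fold (adjusted p = 0.0285), and Trim27, a nuclear ligase first found as a fusion partner of RET, rose 1.33-fold (adjusted p = 0.0338). These were lost in 4 and 8 settings. Trim35 did not pass in this comparison (difference -0.37, adjusted p = 0.106). The interaction of inulin and TsSP was not called for any of these genes, so a difference between the 2 settings was not shown.

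**Figure D4:**
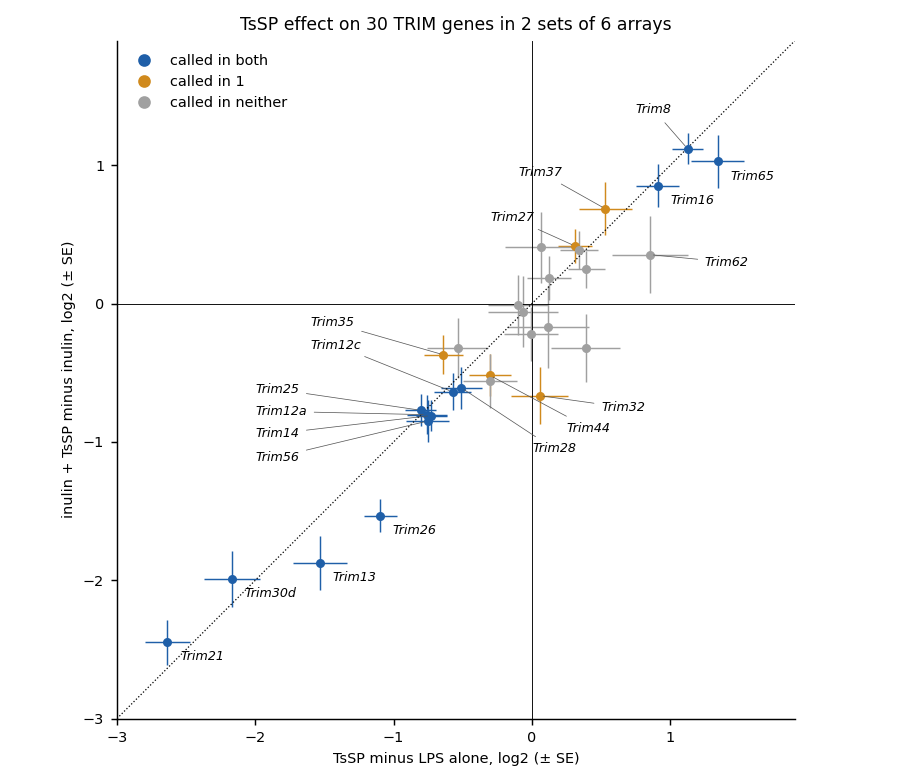
Log2 difference (± SE) of the 30 TRIM genes above background, for TsSP against LPS alone (horizontal) and for TsSP added to inulin (vertical), which use separate sets of 6 arrays. Blue points were called in both, orange in 1 and grey in neither; most points lie near the dotted line of equal change, and Trim32 lies below it, at 0.06 and -0.67. Trim65 was below background without TsSP, so its point rests on levels that are only bounded.

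With both agents against LPS alone, 18 of 60 members passed, 12 lower and 6 higher, beside 17.6% of all genes. By direction 20.0% were lower, beside 7.30% of all genes, and 10.0% were higher, beside 10.3%. Of the 30 above background in at least 1 group, 17 passed, beside 34.4% of all genes under that condition, 11 lower, beside 14.0%, and 6 higher, beside 20.3%. This comparison shares its LPS arrays with that of TsSP alone. Trim21, Trim30d, Trim26, Trim13 and Trim56 fell most, by 5.19-fold, 4.67-fold, 2.71-fold, 2.67-fold and 2.04-fold. Trim8 rose 2.17-fold, Trim37 1.79-fold (adjusted p = 0.00917), Trim16 1.71-fold, and Trim65 at least 1.54-fold. Trim41, a ligase that acts on the DNA sensor cGAS, rose 1.42-fold (adjusted p = 0.0263), and Trim27 1.34-fold (adjusted p = 0.0306); these calls were lost in 5 and 8 of 19 settings.

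Inulin gave no TRIM call. Against LPS alone limma called 0 of 60 members and 0% of all genes; at an unadjusted p of 0.05 these numbers were 6 members and 1143 genes (5.86%). Added to TsSP, inulin again gave 0 calls, with 3 members and 971 genes (4.98%) at the unadjusted level. For the interaction there were 0 calls, with 5 members and 1089 genes (5.58%) at that level. Among the 30 members above background in at least 1 group, differences of inulin from LPS alone ran from -0.23 in Trim30d to 0.46 in Trim13. The most extreme bounds of their 95% intervals were -0.78 in Trim46 and 0.96 in Trim62, which is the size of change that 3 arrays a group left possible. In Trim13 the 3 inulin arrays lay above the 3 LPS arrays (unadjusted p = 0.0385, adjusted p = 0.836 by limma). Added to TsSP, inulin gave differences from -0.59 in Trim32 to 0.31 in Trim37, with a smallest adjusted p of 0.978.

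The 11 members that were above background and called nowhere were Trim3, Trim11, Trim24, Trim30b, Trim33, Trim39, Trim45, Trim46, Trim59, Trim62 and Trim68. Their differences ran from -0.54 in Trim30b to 0.85 in Trim62 for TsSP against LPS alone, and from -0.56 in Trim68 to 0.41 in Trim39 for TsSP added to inulin. The calls below background were Trim75, lower with TsSP and lower when TsSP was added to inulin; Trim43b, lower with both agents; and Trim71 lower and Trim10 higher when TsSP was added to inulin. Trim71 is the stem cell factor Lin-41 and Trim10 is known from red cell precursors. Because these 4 lay below background on all 12 arrays, no fold is given for them.

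The genes that TRIM ligases act on or with moved as follows with TsSP against LPS alone, where 11.0% of all genes were higher and 7.08% lower; most listed genes were above background, where these shares were 21.6% and 13.3%. The lists of this and the next paragraph share some genes, Stat2 among them, so their counts are not separate readings. Among 32 measured interferon-stimulated genes 27 were lower and 0 higher, with a median log2 difference of -0.75. The smallest p-values were those of Iigp1, a GTPase that attacks parasite vacuoles (12.5-fold lower), the chemokine Cxcl10 (4.27-fold lower), and the RNA-binding Ifit3 and Ifit1 (3.44-fold and 3.51-fold lower). In the 12 measured genes of interferon receptors and their signal transduction, 5 were lower and 3 higher. Ifnb1, among the 5 lower, was below background on all 12 arrays, so no fold is given for it. Socs1, a feedback inhibitor of cytokine signalling, fell 3.47-fold, Stat2 fell 1.67-fold and the kinase Tyk2 1.65-fold, while the receptor subunit Ifnar1 rose 1.94-fold.

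Of 19 measured genes of RNA and DNA sensing, which include TRIM substrates, 8 were lower and 2 higher. Nlrp3, the inflammasome sensor, fell 3.30-fold, the RNA sensor Ifih1 (MDA5, the substrate of Trim65) 1.92-fold, the DNA sensor Cgas 1.76-fold and the kinase adaptor Tank 1.57-fold; the 2 that rose, Mavs (1.55-fold) and Sting1 (1.35-fold), were named after their values were seen. Of 17 measured genes of ubiquitin and ISG15 conjugation, 8 were lower and 0 higher. These included the ubiquitin-conjugating enzyme Ube2e2, which fell 3.15-fold, the ISG15 ligase Herc6 (1.89-fold), the ISG15 protease Usp18 (1.93-fold) and Isg15 itself (1.62-fold). Of 7 measured genes that encode TRIM proteins under another name, 2 fell and 0 rose. Only these 2 were above background, so the count says little about the rest. They were Mid1, a microtubule-bound ligase (1.70-fold lower), and Pml, the organiser of PML nuclear bodies (1.66-fold lower). Each gene named in these lists passed an adjusted p of 0.05.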

How the data were processed

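Biotin-labelled RNA from RAW 264.7 cells was hybridised to Affymetrix arrays, per the labels' protocols. The authors deposited 1 log2 value per probe set and array. The log base was inferred from their range (1.32 to 18.9). How background was corrected, how arrays were normalized and with what software is not given in the sources used here, and any compression of dim or bright signals would carry into the folds. Values were used as deposited. Of 28846 probe sets, 19572 had 1 symbol and 0 had several, and the probe set with the highest mean stood for each of 19505 genes.

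A means model over 12 arrays was fitted with limma 3.58.1 (R 4.3.3; lmFit and eBayes, 8 residual and 3.35 prior degrees of freedom), with 6 contrasts. The Benjamini-Hochberg adjustment ran over all 19505 genes of a contrast, tests were two-sided, and the threshold was 0.05. A fold is 2 raised to the log2 difference. A gene below background on any array of the dimmer group has its rise given as at least N-fold: in the dimmer group, each array counts at its own signal or at its brightest background probe, whichever is higher, before averaging. The fit was also run on simulated data with independent noise and few changed genes, which differ from these data. That run does not show that the calls here are right. The number of arrays limits the precision.

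The members, gene lists and tests were chosen with earlier results of these data known. All members that passed and lay above background were named with values. Array by array values were given for the 8 largest differences with TsSP among genes above background. Up to 4 genes of each pathway list were named by smallest p, and all where 5 or fewer passed. Mavs, Sting1 and Ifnb1 fall outside this rule. List genes outside the table were not analysed here. RefSeq (GRCm38.p6) gave promoter sequences, gene names and gene order. Plots were drawn with matplotlib 3.10.9 (Python 3.11.15).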

Additional observations from a re-analysis of the deposited data

How the results depend on the processing

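Every contrast between groups was run under 19 alternative settings and the interaction under 18: quantile normalization, median centring, a mean-variance trend, testing only genes above background, the mean of all probe sets of a symbol, only the groups of the contrast, a replicate block, and leaving out each of 12 arrays in turn. Over the 60 members and the 3 contrasts with calls, the alternatives ended a call 83 times and made one 36 times; no fitted difference of a named member changed sign where it was called. The count of called members stayed within 1.5 times the main count in each setting. Leaving out 1 array gave 13 to 16 calls for TsSP against LPS alone, 15 to 18 for both agents against LPS alone and 14 to 19 for TsSP added to inulin. The inulin contrasts and the interaction gave 0 calls of members in every setting. When only genes above background were tested, the calls for TsSP against LPS alone went from 15 to 19. There were 8 higher and 11 lower in place of 3 and 12. With the mean-variance trend the calls were 6 higher and 12 lower. Shares of all genes called under the alternative settings are not given here, so these counts describe the members only. The same 12 members were called in all 3 contrasts with TsSP under every setting: Trim8, Trim12a, Trim12c, Trim13, Trim14, Trim16, Trim21, Trim25, Trim26, Trim30d, Trim56 and Trim65. Trim75 lost its call in 4 settings for TsSP against LPS alone and in 12 for TsSP added to inulin, and Trim43b and Trim71 in 5 and 4. Without replicate 1 of LPS alone, the array with the lowest median, TsSP against LPS alone again gave 15 calls, without Trim28 (adjusted p = 0.051) and with Trim30b; Trim35 (adjusted p = 0.0662) and Trim43b (adjusted p = 0.107) were lost for both agents. With the median or the 95th percentile of the background probes in place of the brightest, 30 members again lay above background. Samples with the same replicate number correlated at -0.094 to 0.105 in their deviations from group means, 1 of 18 pairs above 0.1, so the numbers were not treated as pairs. With the replicate block there were 15, 17 and 17 calls in the contrasts above and 0 in the others. A comparison of protein sequences was not run.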

Other observations

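Several TRIM proteins, Trim16 among them, serve as receptors or scaffolds in selective autophagy. Of 15 measured genes of that process, 4 rose and 1 fell with TsSP against LPS alone by limma, beside 11.0% of all genes higher and 7.08% lower. Of the 14 above background in at least 1 group 21.4% were higher, beside 21.6% of all genes above background, so the share was that of the background. Map1lc3b, which encodes the LC3B coat of autophagosomes, rose 2.06-fold. The receptor gene Tax1bp1 rose 1.45-fold and Gabarapl1, an LC3 relative, 1.5-fold. Ulk1, the kinase that starts autophagy, passed as higher but was above background on 2 of 3 arrays with TsSP and on none with LPS alone, so no fold is given. Lgals8, a galectin that detects damaged vesicles, fell 1.48-fold.

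Of 12 measured partners of the TIF1 proteins, 2 rose and 0 fell with TsSP. All 12 were above background, and 16.7% higher is below the 21.6% of all genes above background, so the count is no result about these genes. The 2 that rose were Cbx3, a heterochromatin protein (1.56-fold), and the TGF-beta transducer Smad3 (1.65-fold). Trim28 itself was lower in the same comparison.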
